A study of Mus musculus with 12 samples.

Results

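The claudins expressed in the mouse proximal colon were examined in 6 EPR fl/fl and 6 EPR cKO animals, all 12 weeks old. The family members were the 10 claudin genes Cldn1, Cldn2, Cldn3, Cldn4, Cldn5, Cldn7, Cldn8, Cldn12, Cldn15 and Cldn23, taken by symbol from a count table of 55376 genes. The same table held 34 claudin genes in all. EPR is a long non-coding RNA of epithelial tissues, counted under the symbol Smim31. By the study's methods both groups carried the floxed EPR allele, with loxP sites around its promoter and exon 1. The control libraries are titled flfl, while their genotype label reads wt. EPR cKO animals carried in addition the CDX2P-NLS Cre transgene, in which a human CDX2 promoter drives Cre in epithelial cells of the large intestine and the end of the ileum, and the EPR fl/fl controls carried no Cre. No group with Cre alone was part of the comparison, so that effects of Cre and of the EPR deletion cannot be told apart. The proximal segment of each colon was frozen whole, so that 1 library stands for 1 animal and mixes epithelium with muscle, vessels, nerves and immune cells.

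Claudins are membrane proteins with a pair of extracellular loops that join neighbouring cells at the tight junction. The set of claudins in a junction decides which ions and how much water pass between the cells. Pore-forming claudins make channels for small ions and water, sealing claudins close the path, and the colon uses both kinds to hold back its contents while absorbing sodium. Of the 10 genes, Cldn2 and Cldn15 were counted as pore-forming and Cldn1, Cldn3, Cldn4, Cldn5 and Cldn8 as sealing. Cldn7, Cldn12 and Cldn23, whose effect depends on the tissue or is less settled, were put in neither class.

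Total counts ranged from 13093904 to 33211041 per library. EPR itself fell from 39.5 ± 14.5 to 0.132 ± 0.152 CPM (counts relative to library size, scaled by TMM, mean ± SD, n = 6), with 297 to 1474 counts in the EPR fl/fl libraries and 0 to 10 in the EPR cKO libraries. The first EPR cKO library stood apart in tissue content. Its summed CPM of 10 smooth muscle genes was 9478, where the other 5 of that group had 1057 to 2774 and the controls 3165 to 5549, and its sum over 9 genes of enteric neurons and glia was 123, against 13.7 to 37.4 and 35.9 to 73.3. Epithelial markers were present in every library, and all 11 of them had positive fold changes in EPR cKO (median log2 fold change 0.25). Of these 0 passed edgeR, 6 had an unadjusted p under 0.05, and 0, 1 and 6 passed limma-voom, DESeq2 and limma-voom with quality weights. Among all 15952 genes tested, 1777 were higher at that unadjusted limit, and 176, 440 and 1372 with those other tests in turn.

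A single claudin, Cldn8, fell in EPR cKO, and no listed claudin rose by edgeR's quasi-likelihood test at an adjusted p under 0.05. All 10 passed the filter on low counts. For 6 of them the log2 fold change was positive and for 4 negative, with a median of 0.02, beside 0.02 over all 15952 genes tested. Of all genes tested, 1.57% were called lower and 0.884% higher. At an unadjusted p under 0.05 there were 3 claudins, namely Cldn8, Cldn7 and Cldn4, the last 2 with higher levels in EPR cKO. At that limit 1777 of the 15952 genes tested were higher and 1136 lower. The median log2 fold change was 0.0089 for the pore-forming, −0.64 for the sealing and 0.14 for the remaining claudins.

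**Figure D1:**
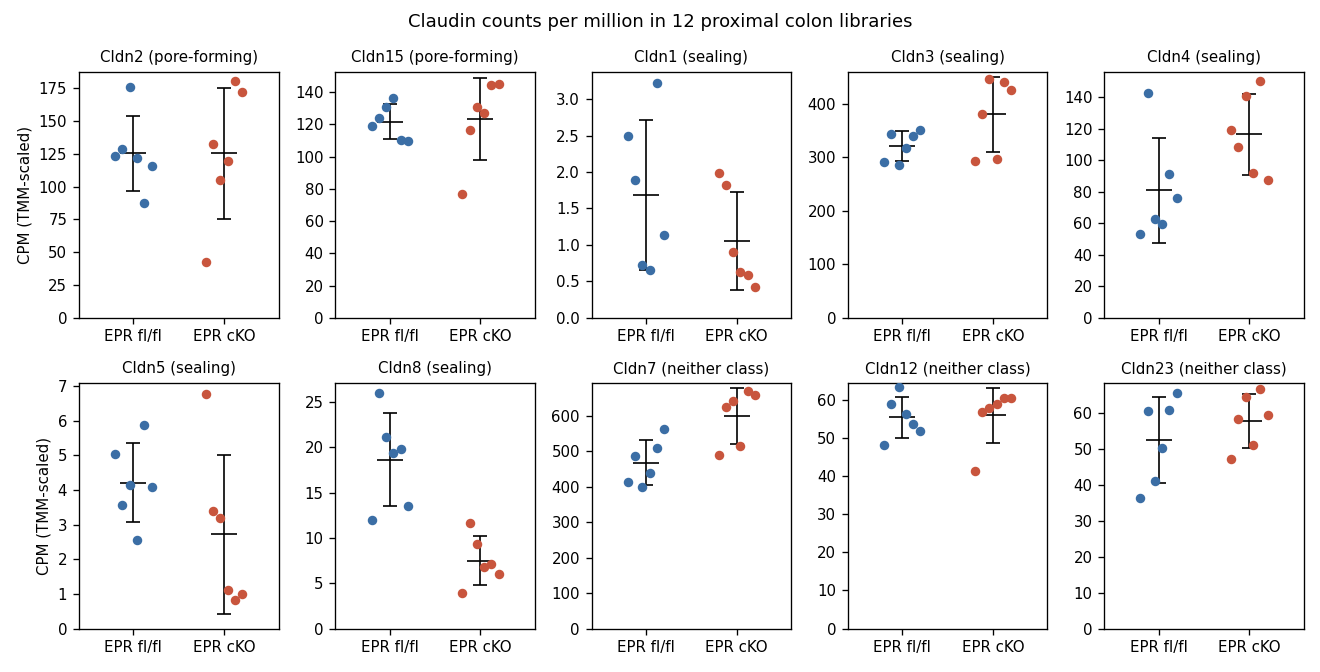
TMM-scaled CPM (vertical axes from 0) of the 10 claudins in 6 EPR fl/fl and 6 EPR cKO libraries, with 1 point per library in replicate order and bars for mean ± SD. The 6 EPR cKO values of Cldn8 (3.91 to 11.7 CPM) lie below all EPR fl/fl values (12.0 to 25.96 CPM), while the groups overlap for the other 9 genes.

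The abundance of the claudins spanned a wide range when compared per kilobase (kb) of exon. In EPR fl/fl colon, Cldn7 led with 317 ± 42.2 CPM per kb, followed by Cldn3 with 255 ± 22.4. These 2 genes made up 73.7% ± 2.75 of the summed claudin level in controls and 76.2% ± 1.42 in EPR cKO. The middle of the order was held by Cldn15 at 64.0 ± 5.68, Cldn4 at 44.5 ± 18.2, Cldn2 at 41.2 ± 9.45 and Cldn23 at 28.4 ± 6.45 CPM per kb. Below them came Cldn12 at 14.0 ± 1.37, Cldn8 at 7.91 ± 2.18, Cldn5 at 2.98 ± 0.812 and Cldn1 at 0.519 ± 0.319 CPM per kb. Neighbours in this order that overlapped across libraries were Cldn7 with Cldn3, Cldn15 with Cldn4, Cldn4 with Cldn2 and Cldn2 with Cldn23, although Cldn7 was above Cldn3 in 6 of 6 libraries. The order by group mean was unchanged in EPR cKO, but Cldn8, at 3.17 ± 1.15 CPM per kb, then overlapped with Cldn5, at 1.92 ± 1.62, and Cldn5 with Cldn1, at 0.326 ± 0.207. The summed level of the 10 claudins was 775 ± 73.1 CPM per kb in controls and 929 ± 142 in EPR cKO, with overlapping groups.

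**Figure D2:**
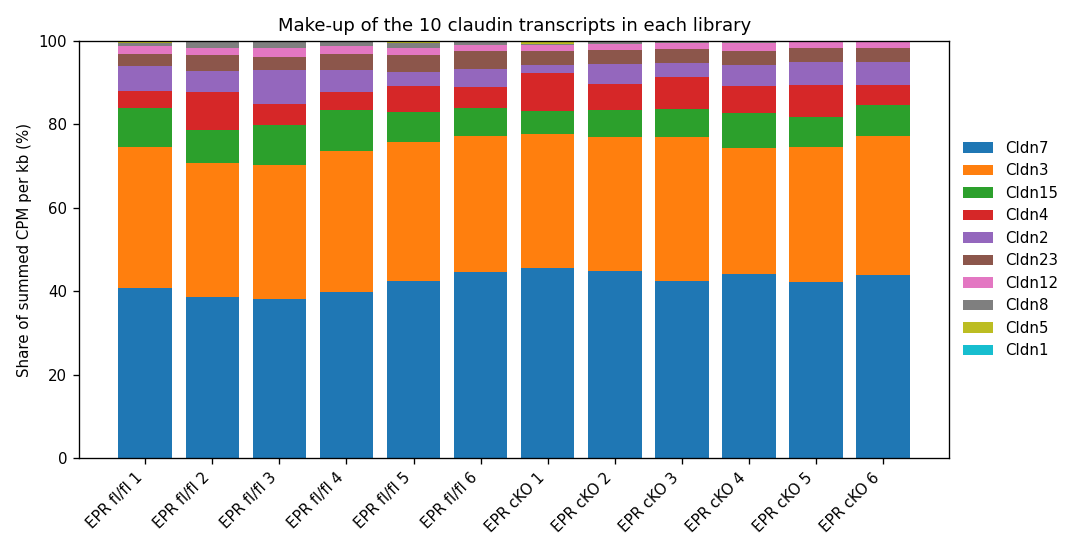
Share of each claudin in the summed CPM per kb of the 10 claudins (vertical axis, percent) for each of the 12 libraries. Cldn7 and Cldn3 fill 70.2% to 77.5% of every bar, and the Cldn8 band thins from 0.670% to 1.30% in EPR fl/fl to 0.228% to 0.525% in EPR cKO.

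The pore-forming claudins were examined first. Cldn2, a channel for sodium and water, had a lowest, median and highest level of 87.3, 123 and 176 CPM in controls and 42.6, 126 and 180 CPM in EPR cKO. The groups overlapped, and the lowest of all 12 values was that of the first EPR cKO library. The fold change was near 0 (log2 −0.0024, SE 0.27, adjusted p = 0.997), with a 95% interval from −0.59 to 0.59. With the mean of 11 epithelial genes as a covariate the log2 change of Cldn2 was −0.68 (SE 0.33, adjusted p = 0.463). Cldn15, the other sodium channel of the intestine, had 110, 122 and 136 CPM in controls and 76.7, 129 and 145 CPM in EPR cKO. Here too the first EPR cKO library was the lowest and the groups overlapped. For Cldn15 the log2 change was 0.02 (SE 0.13) with an adjusted p of 0.944 and an interval from −0.26 to 0.30. The sign of both genes changed with the processing.

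Among the sealing claudins, Cldn8, which tightens the colonic epithelium against the return of absorbed sodium, was the gene that fell. It is a gene with 1 exon on the minus strand at chr16:88560828-88563183 (mm10), and none of its exon bases lay under another annotated gene. Its lowest, median and highest levels were 12.0, 19.6 and 25.96 CPM in controls and 3.91, 6.96 and 11.7 CPM in EPR cKO, from 71 to 799 counts per library. Every EPR cKO library lay below every EPR fl/fl library, a separation found in the lower direction for 1.47% of all tested genes. Cldn8 averaged 18.6 ± 5.14 CPM in controls and 7.48 ± 2.70 in EPR cKO, which is 0.401 of the control level. On the log2 scale it fell by 1.32 (95% interval −1.86 to −0.78, SE 0.25), with an adjusted p of 0.0150 by edgeR. This adjusted p did not reach the stricter limit that the study set for its own calls.

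Cldn8 was also set against other epithelial transcripts of the same library. These references, the 11 epithelial genes, Cldn7 and Cldn4, all had positive fold changes. The ratios to them therefore had to fall with Cldn8 and are a description. Relative to the mean of 11 epithelial genes, Cldn8 stood at −4.50 ± 0.50 on the log2 scale in controls and at −6.08 ± 0.44 in EPR cKO. The groups did not overlap, with −5.16 to −3.97 against −6.55 to −5.37. Relative to Cldn7 per kb, the log2 ratio was −5.36 ± 0.47 and −7.07 ± 0.46, and relative to Cldn4 it was −2.45 ± 0.40 and −4.39 ± 0.59. With the epithelial mean as a covariate in edgeR the log2 fold change was −1.45, but its adjusted p was 0.125. That mean was itself higher in EPR cKO, at 8.92 ± 0.20 against 8.68 ± 0.11 log2 CPM, so that the covariate shares part of the group difference. In whole tissue, fewer cells of a type and less RNA per cell cannot be told apart. Goblet cell genes were also lower in EPR cKO, as 12 of 12 had negative fold changes and 7 passed the test, beside 1.57% of all tested genes. Their summed CPM fell from a range of 13666 to 28868 to one of 6314 to 8783. The first EPR cKO library had the lowest Cldn8, at 3.91 CPM, with a goblet sum of 8683. Abundant genes such as Fcgbp (2612 ± 724 CPM in EPR cKO) and Muc2 (1760 ± 351) weigh most in that sum. Of the single goblet genes, Atoh1 and Spdef were lowest in the first EPR cKO library, at 19.5 and 31.4 CPM. Fcgbp and Clca1 were lowest in the sixth, at 1787 and 689 CPM. All tested genes listed for endothelium, smooth muscle, enteric neurons and glia, immune cells and adipocytes had negative fold changes too, with 0 called by edgeR. At an unadjusted p under 0.05, 2 of 12 endothelial and 5 of 6 adipocyte genes were lower, beside 1136 of all 15952. Quality weights in limma-voom called 10 of 10 smooth muscle, 6 of 6 adipocyte and 5 of 12 endothelial genes lower. They also called 3 of 9 neuron and glia genes and 0 of 9 immune genes, beside 1891 of all genes. The part of any of these cell types in the fall of Cldn8 was not tested.

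The 5 genes whose log2 CPM followed Cldn8 most closely over the 12 libraries were Ffar2, Ccn3, Wfdc2, Kcnh3 and Abo. Pearson's r was 0.947 for Ffar2, a receptor for short-chain fatty acids, and 0.939 for Ccn3, a secreted matricellular protein. It was 0.927 for Wfdc2, a secreted protein with a protease-inhibitor fold, 0.927 for Kcnh3, a voltage-gated potassium channel, and 0.926 for Abo, the blood group glycosyltransferase. The libraries share the group difference, and after subtraction of the group means r ranged from 0.731 for Wfdc2 to 0.834 for Ffar2. All 5 were lower in EPR cKO, with Ccn3 falling from 91.4 ± 21.1 to 21.6 ± 7.03 CPM and Ffar2 from 17.6 ± 3.22 to 8.84 ± 2.31 CPM. These genes were picked by their likeness to Cldn8, and their direction is a description.

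**Figure D3:**
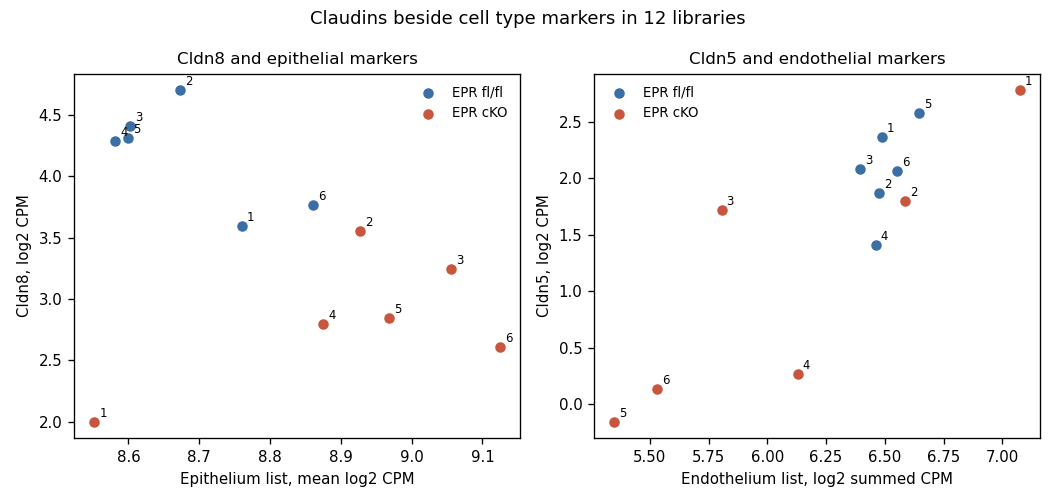
Log2 CPM of Cldn8 against the mean log2 CPM of 11 epithelial genes (left) and of Cldn5 against the log2 summed CPM of the endothelial genes (right), with 1 numbered point per library. Cldn8 is lower in EPR cKO although the epithelial mean is higher in 5 of 6 EPR cKO libraries than in all EPR fl/fl libraries, and the first EPR cKO library has the highest Cldn5 and the highest endothelial sum.

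The abundant sealing claudins passed the test in neither direction. Cldn3 had 285, 328 and 352 CPM as its lowest, median and highest level in controls and 293, 403 and 446 CPM in EPR cKO. The groups overlapped, with 4 of 6 EPR cKO libraries above all EPR fl/fl libraries, and the log2 change was 0.24 (95% interval −0.01 to 0.50, SE 0.12, adjusted p = 0.299). Cldn4 had 53.1, 69.1 and 142 CPM in controls and 87.2, 114 and 150 CPM in EPR cKO. A single EPR fl/fl library, the second, lay within the upper EPR cKO values while the other 5 stayed at or below 91.0 CPM. The log2 change of Cldn4 was 0.53 (SE 0.23, adjusted p = 0.248), and it was 0.77 with an adjusted p of 0.0439 without that library.

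Cldn5, the main claudin of blood vessel endothelium, and Cldn1, a claudin of barrier epithelia, were rare. Cldn5 had 2.57, 4.12 and 5.88 CPM in controls and 0.811, 2.16 and 6.77 CPM in EPR cKO. The EPR cKO group held both the highest value of all 12, in its first library, and the 3 lowest, at 0.811 to 1.12 CPM, in replicates 4 to 6. Its log2 change was −0.64 (SE 0.47, 95% interval −1.64 to 0.37) with an adjusted p of 0.482, and −1.16 with an adjusted p of 0.0482 without the first EPR cKO library. Cldn1 had only 8 to 58 counts per library, with 0.650, 1.51 and 3.23 CPM in controls and 0.426, 0.764 and 1.98 CPM in EPR cKO. Its groups overlapped and its log2 change of −0.64 had an interval from −1.68 to 0.41 (adjusted p = 0.497).

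The level of Cldn5 ran along with endothelial markers. Of 13 endothelial genes listed, 12 were tested, all 12 had negative fold changes and 0 were called by edgeR (2 at an unadjusted p under 0.05, and 1, 0 and 5 with DESeq2, limma-voom and limma-voom with quality weights). Lower genes among all 15952 tested numbered 1136 at the unadjusted limit, and 473, 327 and 1891 with those other tests in turn. The endothelial genes included Pecam1 (17.1 ± 1.81 and 13.9 ± 6.93 CPM, adjusted p = 0.522) and Vwf (13.7 ± 1.30 and 13.3 ± 8.86 CPM, adjusted p = 0.940). Their summed CPM was 84.1 to 100.02 in controls and 40.7 to 135 in EPR cKO. Over the 12 libraries, log2 CPM of Cldn5 and the log2 endothelial sum correlated with Pearson's r = 0.855 (permutation p = 0.00135, adjusted over 3 relations 0.00135) and Spearman's rho = 0.839 (permutation p = 0.0012, adjusted 0.0018). Without the 2 libraries farthest from the median of the endothelial sum, r was 0.634. Within the groups r was 0.561 in controls and 0.845 in EPR cKO, and 0.678 in EPR cKO without its first library. Relative to the endothelial sum, Cldn5 stood at −4.47 ± 0.37 in controls and −5.07 ± 0.76 in EPR cKO on the log2 scale. The groups overlapped, with −5.10 to −4.09 against −5.97 to −4.12.

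The claudins in neither class included the most abundant gene. Cldn7, which in the gut is bound and stabilised by the adhesion protein Epcam, had 400.0, 461 and 563 CPM in controls and 488, 633 and 670 CPM in EPR cKO. Its groups overlapped, with 4 of 6 EPR cKO libraries above all EPR fl/fl libraries. The log2 fold change was 0.36 (SE 0.11, 95% interval 0.12 to 0.59), with an unadjusted p of 0.00619 and an adjusted p of 0.112 by edgeR. Cldn7 passed as higher with the DESeq2 Wald test (adjusted p = 0.0480), with limma-voom and quality weights (0.0181) and in edgeR without the first EPR cKO library (0.0215), so that its call depended on the test. Relative to the mean of the 11 epithelial genes, log2 Cldn7 stood at 0.18 ± 0.17 in controls and 0.30 ± 0.11 in EPR cKO. The difference of 0.119 was smaller than the SD of the EPR fl/fl libraries (0.167) and larger than that of the EPR cKO libraries (0.108).

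Cldn12, a claudin without the usual PDZ-binding end, had 48.0, 55.0 and 63.2 CPM in controls and 41.4, 58.3 and 60.5 CPM in EPR cKO. Its log2 change was 0.01 (SE 0.10) with an adjusted p of 0.946, and its interval, from −0.20 to 0.22, was the narrowest of the 10 claudins. Cldn23, a claudin of differentiated luminal colonocytes, had 36.2, 55.4 and 65.7 CPM in controls and 47.2, 58.9 and 66.8 CPM in EPR cKO. Both genes overlapped between the groups, and Cldn23 had a log2 change of 0.14 (95% interval −0.17 to 0.46, SE 0.15, adjusted p = 0.616).

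**Figure D4:**
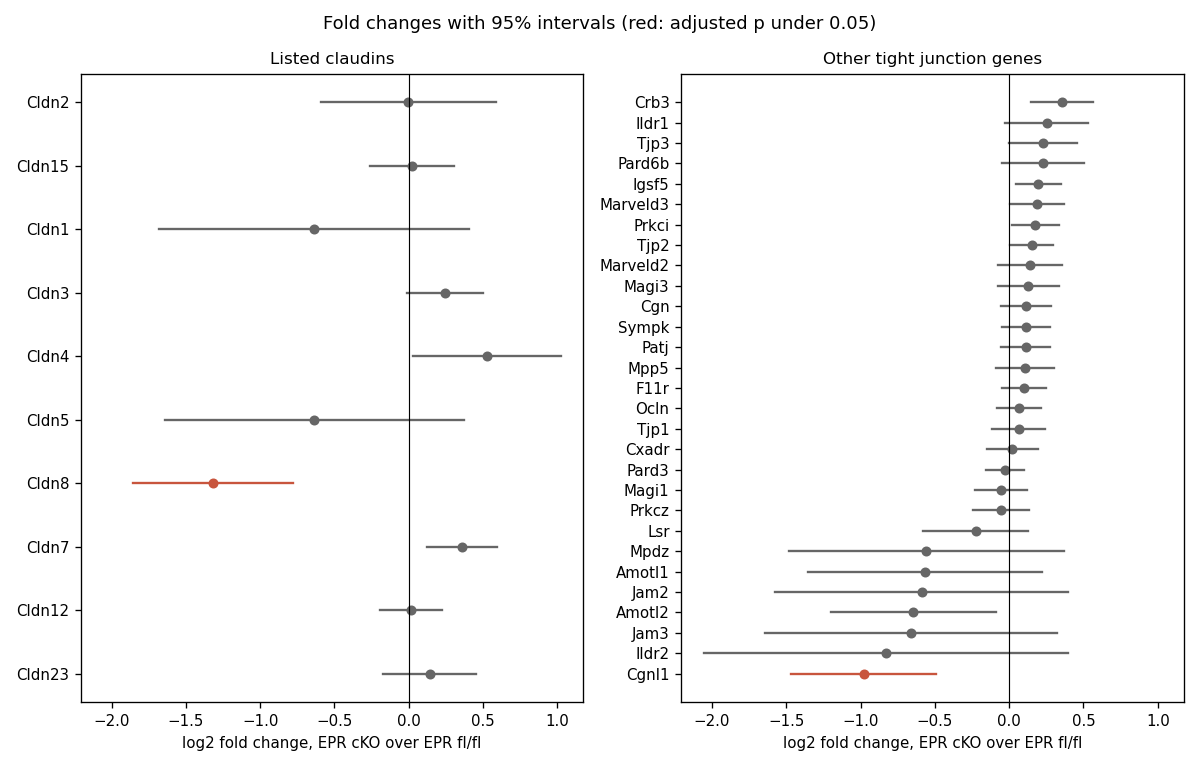
Log2 fold changes of EPR cKO over EPR fl/fl (horizontal axes, points) with 95% intervals from edgeR (lines) for the 10 claudins (left) and 29 other tight junction genes (right), with red for an adjusted p under 0.05. Cldn8 (−1.32) and Cgnl1 (−0.98) are the 2 genes in red.

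Pore-forming against sealing claudins gave no single direction. The log2 ratio of summed CPM per kb, Cldn2 and Cldn15 over the 5 sealing claudins, was −1.57 ± 0.32 in EPR fl/fl (−1.95 to −1.11) and −1.85 ± 0.38 in EPR cKO (−2.49 to −1.45). The groups overlapped, and the difference of −0.28 was smaller than either SD. It was −0.15 without the first EPR cKO library, which had the lowest ratio of all. In this sum Cldn3 counts for most, since it held 32.9% ± 0.809 of the claudin level in controls and 32.4% ± 1.51 in EPR cKO. With each gene weighted alike, as the mean log2 CPM of pore-forming minus that of sealing claudins, the value was 2.65 ± 0.48 in controls and 3.01 ± 0.85 in EPR cKO, a difference of 0.37 in the opposite direction. Without the first EPR cKO library it was 0.64, with 3.29 ± 0.59 in the other 5. That measure gives the rare Cldn8, Cldn5 and Cldn1 the same weight as Cldn3. No test was made of either measure.

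**Figure D5:**
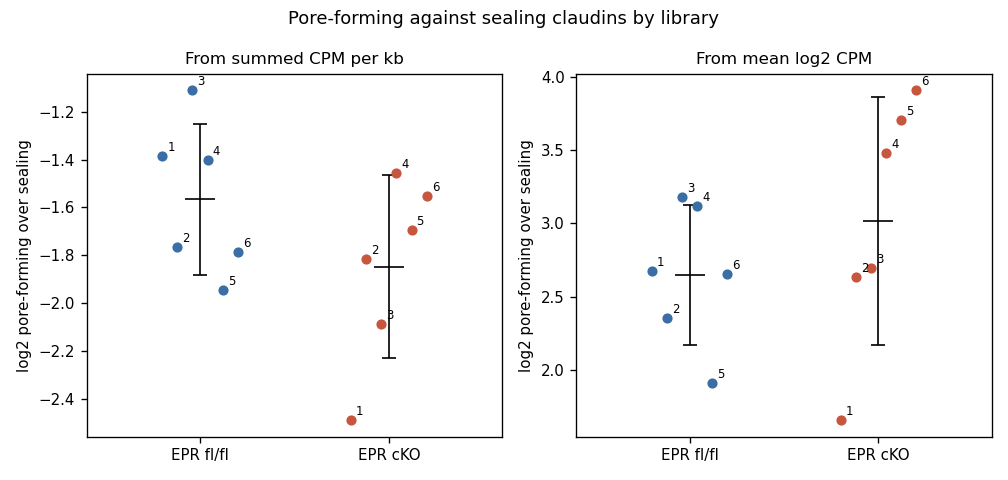
Log2 of pore-forming over sealing claudins in each library, from summed CPM per kb (left) and from the mean log2 CPM over genes (right), with 1 numbered point per library and bars for mean ± SD. The EPR cKO mean is lower on the left (−1.85 against −1.57) and higher on the right (3.01 against 2.65), and the first EPR cKO library is the lowest in both panels.

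Some claudins moved together from animal to animal. Log2 CPM of Cldn3 and Cldn7 correlated with Pearson's r = 0.910 (permutation p = 0.00013, adjusted over 3 relations 0.00039) and Spearman's rho = 0.888 (permutation p = 0.00025, adjusted 0.00075) over the 12 libraries. For Cldn3 and Cldn7, r was 0.947 within EPR fl/fl and 0.976 within EPR cKO, and 0.856 without the 2 libraries farthest from the median of Cldn7. Cldn2 and Cldn15 gave r = 0.908 (permutation p = 0.00092, adjusted 0.00135) and rho = 0.678 (permutation p = 0.0181, adjusted 0.0181). Without the 2 libraries farthest from the median of Cldn15, r fell to 0.620. In both relations the points share the tissue content of their library, whose part was not tested.

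The promoters of these pairs are shown because their transcripts varied together. RefSeq start regions (GRCm38.p6, 250 bases before to 50 after the start) matched 8 of the 10 claudins, and Cldn8 and Cldn23 are named only. Both strands were searched for a TATA box (letters TATAAA), an E-box (letters CACCTG), a GC box (letters GGGCGG) and a pair of facing Grainyhead-like sites (letters AACCNGTT). Capitals mark the matches, none of which overlap in the regions shown. The regions are chr5:134985964-134986263 (plus strand) for Cldn3, chr11:69965171-69965470 (plus strand) for the second of 2 start regions of Cldn7, chrX:139800558-139800857 (plus strand) for Cldn2 and chr5:136967619-136967918 (plus strand) for Cldn15.
Cldn3: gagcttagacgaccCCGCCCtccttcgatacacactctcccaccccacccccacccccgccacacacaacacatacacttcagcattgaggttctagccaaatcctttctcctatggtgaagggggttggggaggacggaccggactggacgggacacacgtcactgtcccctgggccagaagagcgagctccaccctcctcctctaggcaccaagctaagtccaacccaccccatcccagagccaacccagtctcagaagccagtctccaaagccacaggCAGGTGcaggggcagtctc
Cldn7: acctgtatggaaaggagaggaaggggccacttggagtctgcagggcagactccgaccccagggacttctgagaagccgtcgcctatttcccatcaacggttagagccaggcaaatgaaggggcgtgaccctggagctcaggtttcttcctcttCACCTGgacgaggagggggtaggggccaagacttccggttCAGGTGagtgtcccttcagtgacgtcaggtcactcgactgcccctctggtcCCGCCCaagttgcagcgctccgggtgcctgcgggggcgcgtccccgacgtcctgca
Cldn2: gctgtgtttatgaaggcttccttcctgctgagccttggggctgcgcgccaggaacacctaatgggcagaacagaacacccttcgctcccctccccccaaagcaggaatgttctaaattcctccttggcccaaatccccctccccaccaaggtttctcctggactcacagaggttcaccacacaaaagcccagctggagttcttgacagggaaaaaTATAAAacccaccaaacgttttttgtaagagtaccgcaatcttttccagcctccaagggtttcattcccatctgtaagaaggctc
Cldn15: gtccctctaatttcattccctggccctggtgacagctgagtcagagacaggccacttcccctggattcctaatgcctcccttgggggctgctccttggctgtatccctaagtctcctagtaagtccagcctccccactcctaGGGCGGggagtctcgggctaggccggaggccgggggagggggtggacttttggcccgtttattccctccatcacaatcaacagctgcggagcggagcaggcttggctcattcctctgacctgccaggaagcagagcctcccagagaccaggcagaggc
The E-box was found once in the Cldn3 region and at 2 places in the Cldn7 region, and both also held the GC box. Neither motif was particular to this pair. The Cldn4 region held the E-box at 2 places, and of the 8 claudins all but Cldn2 had a start region with the GC box. The other start region of Cldn7 held none of the 4 motifs. The Cldn2 region held the TATA box, 35 bases before the start, and the Cldn15 region held only the GC box, 108 bases before the start. Among all 32851 mouse start regions of this length, 20.2% held the E-box, 35.7% the GC box, 13.6% the TATA box and 2.09% the Grainyhead-like pair, which matched only Cldn5 among the 8 claudins. Cldn3 also has Cldn4 as a neighbour on chromosome 5, in the opposite orientation, with 39.3 kb between their start sites.

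Among the partners of claudins in the tight junction, Cgnl1 was the gene that passed the test by edgeR. Of 29 tested genes for scaffolds, other junction membrane proteins and polarity factors, 18 had positive and 11 negative fold changes, with a median of 0.10. At an unadjusted p under 0.05 there were 6 higher and 2 lower, and limma-voom with quality weights called 4 higher and 6 lower. Of all 15952 genes tested, 1777 were higher and 1136 lower at that unadjusted limit. Quality weights called 1372 of all genes higher and 1891 lower. Cgnl1, which links junctions to the cytoskeleton, fell from 40.2 ± 4.05 to 20.4 ± 9.40 CPM (log2 change −0.98, SE 0.23) with an adjusted p of 0.0393. At 38.4 CPM its first EPR cKO library lay among the controls, which had 34.3 to 44.8 CPM, and the other 5 did not exceed 22.4. The call held in 2 of 12 fits without 1 of the libraries, the adjusted p ranging from 0.000146 (without the first EPR cKO library) to 0.0941 (without the fourth EPR cKO library), and was lost with the epithelial covariate (log2 change −0.53, adjusted p 0.151). The scaffold Tjp1, also known as ZO-1, had 169 ± 11.8 and 177 ± 21.1 CPM (log2 change 0.06, adjusted p = 0.689). Tjp3 had a log2 fold change of 0.23 (adjusted p = 0.272), Cgn 0.11 (0.455), the adhesion receptor F11r 0.10 (0.446), occludin (Ocln) 0.07 (0.616) and tricellulin (Marveld2) 0.14 (0.474).

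Among 10 tested genes for the stability and turnover of claudins, 1 rose and 0 fell by edgeR, with 3 higher and 2 lower at an unadjusted p under 0.05. DESeq2 called 2 higher and 0 lower, and limma-voom with quality weights 3 and 1. Beside these stand 1777 higher and 1136 lower of all 15952 genes tested at the unadjusted limit. DESeq2 called 440 of all genes higher and 473 lower, and quality weights 1372 and 1891. Spint1, an inhibitor of the membrane protease matriptase, rose from 216 ± 9.73 to 272 ± 23.1 CPM (log2 change 0.33, SE 0.07) with an adjusted p of 0.0230 by edgeR. Its libraries had 202 to 230 CPM in controls and 246 to 299 CPM in EPR cKO. The share of all tested genes separated in the higher direction was not counted. This call held in 4 of 12 fits that left out 1 library (adjusted p 0.00666 to 0.0849), and was lost with total counts (0.124), without a filter (0.130), with the replicate block (0.0607) and with the epithelial covariate (log2 change 0.25, adjusted p 0.219). Epcam had 1287 ± 123 and 1480 ± 207 CPM (log2 change 0.20, adjusted p = 0.339).

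Sodium absorption genes, whose transport Cldn8 is known to accompany in the colon, held 1 called gene among 9 tested by edgeR. Of all tested genes 1.57% were called lower. Scnn1b, a subunit of the epithelial sodium channel, fell from 5.70 ± 1.69 to 0.857 ± 0.556 CPM (log2 change −2.69, SE 0.37) with an adjusted p of 0.00168. Its groups did not overlap, with 3.51 to 7.80 CPM in controls and 0.301 to 1.90 in EPR cKO. Such a separation in the lower direction was found for 1.47% of all tested genes. The call held in 12 of 12 fits that left out 1 library, and with the epithelial covariate the log2 change was −2.51 with an adjusted p of 0.0607. Scnn1a, another subunit, was lower at an unadjusted p under 0.05 only (log2 change −0.26, adjusted p 0.260 by edgeR). At that limit 1136 of all 15952 genes were lower. The median log2 fold change of the 9 genes was −0.08.

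The other 24 claudin genes of the table were at or near the limit of detection. For 10 of them there was no count in any library, 14 had at least 1, and 0 passed the filter. The highest single-library levels were 1.36 CPM for Cldn10, 0.991 for Cldn34c1, 0.661 for Cldn11 and 0.650 for Cldn14, which were chosen after their values were seen. A count of 0 in a library allows up to 3 counts, or 0.0935 to 0.220 CPM depending on depth, for counting error only. Cldn17, the neighbour of Cldn8 with 56.2 kb between the starts, had 4 counts in all 12 libraries together, all of them in EPR fl/fl.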

How the data were processed

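Total RNA depleted of ribosomal RNA was sequenced from 12 libraries, 6 per group, with groups and replicate numbers taken from the sample titles. The authors trimmed the reads, aligned them with STAR 2.5.3a to mm10 and assigned them to Ensembl GRCm38 genes with featureCounts. The deposited values were raw counts per gene, not normalized or filtered, with 0 count columns left without a sample. Whether counting used the strand is not given in the sources used here, and 3.18% of Cldn3 exon bases lie under the opposite-strand gene Wbscr25. None of the 10 claudins shared a stretch of 50 bases with another GENCODE M21 transcript.

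From the counts, genes with at least 1 CPM in at least 4 libraries were kept (15952 of 36694 with any count), as in the study, and scaled by TMM. The main test was the quasi-likelihood F test of edgeR 4.0.16 in R 4.3.3 with no covariate, Benjamini-Hochberg adjusted over all tested genes, with an adjusted p under 0.05 as the call. The study set stricter limits and did not name its package. Levels between genes were compared as CPM per kb of the exon length in the table. A prior count of 2 was added for log2 CPM of a library. Correlations used 100000 permutations, two-sided. The common biological coefficient of variation was 26.1%, and SEs of log2 fold changes had a median of 0.14. No pair of libraries within a group agreed within sampling noise, since the lowest chi-square per gene was 20.9. The script was tested on simulated data.

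The members, lists and tests were chosen with earlier results of these data known. Named genes were the 10 claudins, other claudins past the filter, EPR, called genes and fixed examples of the junction and stability lists, called and most abundant genes of other lists, and the 5 genes most like a called claudin. Alternatives were other scalings, other filters, DESeq2 1.42.0, limma 3.58.1 (voom), a replicate block, an epithelial covariate and leaving out each library. Figures were drawn with matplotlib 3.10.9.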

Additional observations from a re-analysis of the deposited data

Results flagged for a closer look

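Cldn12 in the first EPR cKO library stood far from its group, at 41.4 CPM against 56.7 to 60.5 CPM in the other 5 EPR cKO libraries. The gap made up 0.803 of the range of the group, past the 95% limit of Dixon's test for 6 samples. In all, 42 sets of 6 values were tested and 1 was past the limit, while chance gives about 2.1. The same library had the lowest Cldn2 and Cldn15 and the highest Cldn5 of its group, and the highest sum of smooth muscle genes of all libraries. The part of tissue content in the low Cldn12 was not tested.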

How the results depend on the processing

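Cldn8 was called lower in 8 of 9 alternatives over all libraries and in 12 of 12 fits that left out a library (log2 −1.48 to −1.20, adjusted p 0.00369 to 0.0450). The exception was the epithelial covariate (−1.45, adjusted p 0.125), which left 0 claudins lower. Leaving out single libraries gave 1 to 2 claudins lower (Cldn5 added without EPR cKO 1) and 0 to 1 higher (Cldn4 without EPR fl/fl 2, Cldn7 without EPR cKO 1). The DESeq2 Wald test and limma-voom with quality weights each called 1 claudin higher, Cldn7. The ratio of pore-forming to sealing claudins changed from −0.28 to 0.37 with the mean of log2 CPM (0.64 without EPR cKO 1), since rare genes then weigh as much as abundant ones.

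Fold changes near 0 changed sign. Cldn2 was at 0.080 with quality weights, −0.68 with the epithelial covariate and −0.14 to 0.16 with libraries left out. Cldn15 was at −0.0054 with total counts, −0.00033 without a filter, −0.0057 with limma-voom, −0.0040 with the replicate block, −0.26 with the epithelial covariate and −0.029 to 0.11 with libraries left out. Cldn12 was at −0.017, −0.0072 and −0.12 with total counts, no filter and the covariate, and −0.030 to 0.070 with libraries left out. Cldn23 was at −0.041 with the covariate.

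Over all genes, 251 were lower and 141 higher. The counts were 473 and 440 with DESeq2, 1891 and 1372 with quality weights, and 118 and 12 with the covariate. Higher genes numbered 39 with total counts, 54 without a filter and 67 with the replicate block. Leaving out a library gave 145 (without EPR fl/fl 4) to 2273 (without EPR cKO 1) lower and 28 (without EPR cKO 3) to 1178 (without EPR cKO 1) higher genes. The cause was not tested. Total counts shifted the median log2 fold change of all genes by −0.03.

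The study's methods name no pairing of animals by replicate number, and the values do not settle whether there was one. Deviations of equal numbers correlated at −0.24 to 0.34, and 4 of 12 libraries correlated best with their own number. For Cldn8, the replicates ranked in the same order in both groups. With the replicate block in edgeR its log2 change was −1.35 (adjusted p 0.00172), and its SE was 0.11 against 0.25 without the block. The replicate block gave 178 lower and 67 higher genes and changed no call among the claudins, but ended that of Spint1 (adjusted p 0.0607). Cldn1 had 8 to 58 counts per library and a coefficient of variation of 61.4% in controls and 63.6% in EPR cKO.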
